A study of Paralichthys olivaceus with 2 samples.

Results

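Among the transcripts of whole larvae of the Japanese flounder, Paralichthys olivaceus, 105 of the 21787 listed genes combined a high count with a long coding sequence. They were selected on 2 values, a summed count of 5000 or more over the 2 libraries and an inferred coding length of 1000 to under 9000 nt. The coding length was worked out from the deposited count and FPKM (fragments per kilobase per 1000000) of the control library. Of the 230 genes with that summed count, 121 had coding lengths under 1000 nt and 4 had coding lengths of 9000 nt or more.

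The libraries came from larvae sampled at 42 days after hatching (DAH), 1 library for each group. The T3 group had received 3,3′,5-triiodo-L-thyronine (T3), the receptor-active thyroid hormone, at 0.01 mg/L during 10 days beginning at 16 DAH. It was sampled 16 days after the end of that period. The control group was untreated, and 1000 larvae entered each group. RNA was selected by its poly(A) tail, and how many larvae went into a library was not given in the sources used here. Sequencing was placed at the age of greatest body colour difference among the study's groups, which included T4 and thiourea treatments not analysed here. The comparison asks which transcripts were more or less abundant after T3 than without it at that age.

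Thyroid hormone acts through nuclear receptors that bind DNA and change the transcription of their target genes. In flatfish it drives metamorphosis, in which an eye migrates, larval muscle, skin, blood and gut give way to juvenile forms, and pigmentation becomes asymmetric. In a whole-body library the transcripts with the most counts generally encode proteins made in bulk, such as those of contractile filaments, energy metabolism, translation, digestion, skin and extracellular matrix. None of the 105 genes (0 matched) could be paired with a name in the reference table, so no role is given to any of them, and they are described by abundance, coding length and ratio. Whole-body RNA also cannot tell fewer cells of a type from less RNA per cell.

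Gene counts summed to 4943675 for the control and to 6042338 for T3, which is 1.22 times as many. Each of the 105 genes had at least 1297 counts in each library. The 95% counting interval of a ratio (exact Clopper-Pearson, T3 share of a gene's counts) spanned a factor of 1.09 at the median gene and at most 1.14. These intervals cover counting error only. With 1 library per group there is no replicate check and no p-value, and each value compares these 2 libraries rather than the conditions.

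As a group the 105 genes took a larger part of the T3 library. They held 26.98% of control counts (95% Wilson interval 26.94 to 27.02) and 31.46% of T3 counts (31.43 to 31.50). The abundant genes under 1000 nt held 38.1% of control counts and 36.4% of T3 counts. Of the 105 genes, 47 gained library share, by 7.29 percentage points in sum, and 58 lost share, by -2.81 points in sum, for a net change of 4.48 points. The 3 largest gains alone added 4.23 points, whereas the median gene's change was -0.0114 points. The counts were concentrated in few genes, and 6 of them held the first 50% of the group's control counts, against 4 genes of its T3 counts.

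The gain rested on the most abundant genes. Ranked by mean share of the 2 libraries, the first 10 of the 105 held 15.6% of control counts and 21.0% of T3 counts. The other 95 genes held 11.37% of control counts (11.34 to 11.40) and 10.43% of T3 counts (10.41 to 10.46). Their summed share was thus lower in T3, but the rise of the first 10 itself lowers the shares of all other genes. Leaving out the 20 most abundant listed genes, which include the first 10, the totals were 3452481 in the control and 3777703 in T3. Of those the other 95 genes held 561979 and 630369 counts, a slightly larger part in T3. Those 20 also include genes outside the group, however. With only the first 10 left out (771945 control and 1270833 T3 counts), the part held by the 95 genes stayed slightly lower in T3. It was lower too over totals scaled by the trimmed mean of M-values (5065889 and 5896568). The direction thus depended on the total used. Without the first gene alone, the group held 19.0% of the control and 21.4% of T3 counts.

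**Figure D1:**
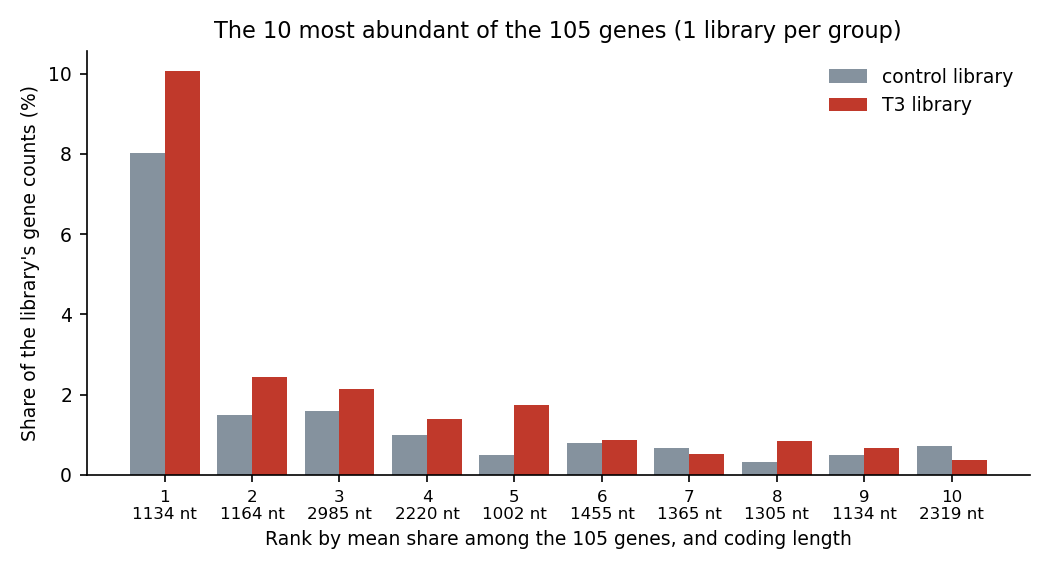
Share of each library's gene counts (y axis, %) taken by the 10 most abundant of the 105 genes (x axis, rank and coding length); grey bars are the control library and red bars the T3 library, 1 library each. The T3 bar is taller for 8 of the 10 genes and shorter for ranks 7 and 10.

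The gene of rank 1 is 1134 nt long and has the most counts of any listed gene. It took 8.03% of control counts (396872 counts) and 10.07% of T3 counts (608236). Ratios from here on are T3 over control after scaling by the trimmed mean of M-values (TMM), which makes each 1.05 times the plain ratio of shares. On that scale rank 1 was 1.32-fold higher in T3 (counting interval 1.31 to 1.32). Counts favour long coding sequences, so levels were also divided by length. Rank 1 stood at 69085 scaled CPM (counts per 1000000) per kilobase in the control and 90962 in T3, well above every other gene of the group in each.

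Rank 2 (1164 nt) had 73224 control counts and 147227 T3 counts, or 1.481% and 2.437% of the libraries, and was 1.73-fold higher in T3 (1.71 to 1.74). Rank 3, with a coding length of 2985 nt, took 1.60% and 2.13% and was 1.40-fold higher (1.39 to 1.41). By counts rank 3 led rank 2 in the control, and the order was the other way round in T3. Per kilobase, however, the level of rank 3 was 5232 scaled CPM in the control, against 12418 for rank 2. Rank 4 (2220 nt) took 0.995% and 1.39% of the counts and was 1.47-fold higher (1.449 to 1.482).

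Of the next 6 genes, 4 were higher in T3 and 2 were lower. Rank 5 (1002 nt) took 0.508% of the control and 1.75% of T3 counts, and it stood in the eighth place among the 10 genes in the control and in the fourth in T3. Rank 6 (1455 nt) changed least of the 10, from 0.795% to 0.858%, with a ratio of 1.13 (1.12 to 1.15). Rank 8 (1305 nt) had the lowest control share of the 10, at 0.322%, and took 0.846% of T3 counts. Rank 9 has the coding length of rank 1, 1134 nt, and its ratio was 1.43 (1.40 to 1.45). The pair of genes with lower levels in T3 were rank 7 (1365 nt), which was 1.25-fold lower (1.23 to 1.27), and rank 10 (2319 nt), which was 1.80-fold lower (1.77 to 1.83). Rank 10 took 0.719% of control counts and 0.380% of T3 counts.

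Across the whole group the ratios fell on either side of equal abundance. By point ratio 48 of the 105 genes were above 1 and 57 below. The counting interval lay wholly above equal abundance for 47 genes (44.8%) and wholly below it for 55 (52.4%), and 3 had an interval that included it. Over all 17301 genes with at least 10 counts, the same criteria were met by 11.3% and 14.6%, but most of those genes have wide intervals. Among the abundant genes under 1000 nt, whose intervals are at least as narrow at the median gene, 30 of 121 (24.8%) lay above and 86 (71.1%) below. These shares describe 2 sets of genes in the same libraries, and the difference between the sets was not tested. A total of 47 genes were above equal abundance under all 5 scalings tried and 54 below it under all 5, so the direction of 4 genes depended on the scaling.

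The median log2 ratio of the 105 genes was -0.15, with 25% of the genes under -0.37 and 25% over 0.48. Their robust standard deviation (RSD, the median absolute deviation on the scale of a normal standard deviation) was 0.57. Counting error alone would give about 0.03 for the median gene and is a small part of that spread. With 1 library per group, treatment, variation between fish and library preparation cannot be told apart as its source. The abundant genes under 1000 nt had a median of -0.28 with an RSD of 0.23. By the ordinary standard deviation the sets lay closer, at 0.74 for the longer and 0.49 for the shorter genes. Of the shorter genes 74 of 121 (61.2%) lay within 0.25 of their median. Of the longer genes only 37 of 105 (35.2%) lay within 0.25 of theirs. The sets were not matched in abundance, with a median summed count of 9599 for the longer and 20646 for the shorter genes. With a limit of 10000 counts for both sets, the RSDs were 0.52 and 0.16. All genes compared had a median of 0.00321 with an RSD of 0.53, where counting error at the median gene was 0.31.

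**Figure D2:**
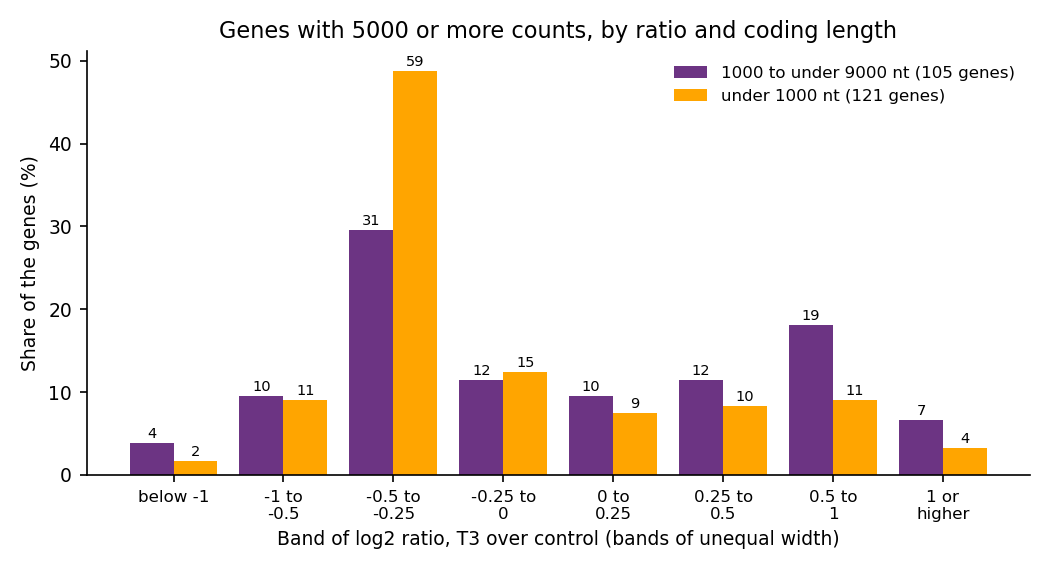
Share of genes (y axis, %) in bands of the log2 ratio of T3 over control (x axis) for the 105 abundant genes of 1000 to under 9000 nt (purple) and the 121 under 1000 nt (orange); numbers over the bars are gene counts and the bands differ in width. The band from -0.5 to -0.25 holds 31 of the longer and 59 of the shorter genes, and the 2 bands from 0.5 upward hold 19 and 7 of the longer genes against 11 and 4 of the shorter.

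The fullest band of the longer genes was that of log2 ratios from -0.5 to -0.25, with 31 genes (29.5%) and a median of -0.36. Their coding lengths ran from 1008 to 8976 nt and their summed counts from 5027 to 64743, so neither value set them apart. Together they took 5.27% of control counts and 3.92% of T3 counts. A further 12 genes lay between -0.25 and 0, and took 1.91% of the control and 1.63% of T3 counts.

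The next band down, from -1 to -0.5, held 10 genes that took 1.73% of the control and 0.972% of T3 counts. Of these, 7 lay close together between -0.88 and -0.80, and the next gene above them stood at -0.56. This cluster was seen in the ranked values and gets no test. Its genes were 1374 to 3210 nt long and included rank 10.

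The 48 genes above equal abundance lay in 4 bands. From 0 to 0.25 lay 10 genes, with 1.86% of the control and 2.02% of T3 counts. From 0.25 to 0.5 lay 12 genes that held 10.4% and 13.2%, most of it from rank 1. From 0.5 to 1 lay 19 genes, which together took 4.24% of control counts and 6.50% of T3 counts. Ranks 2, 4 and 9 belong to this last band.

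**Figure D3:**
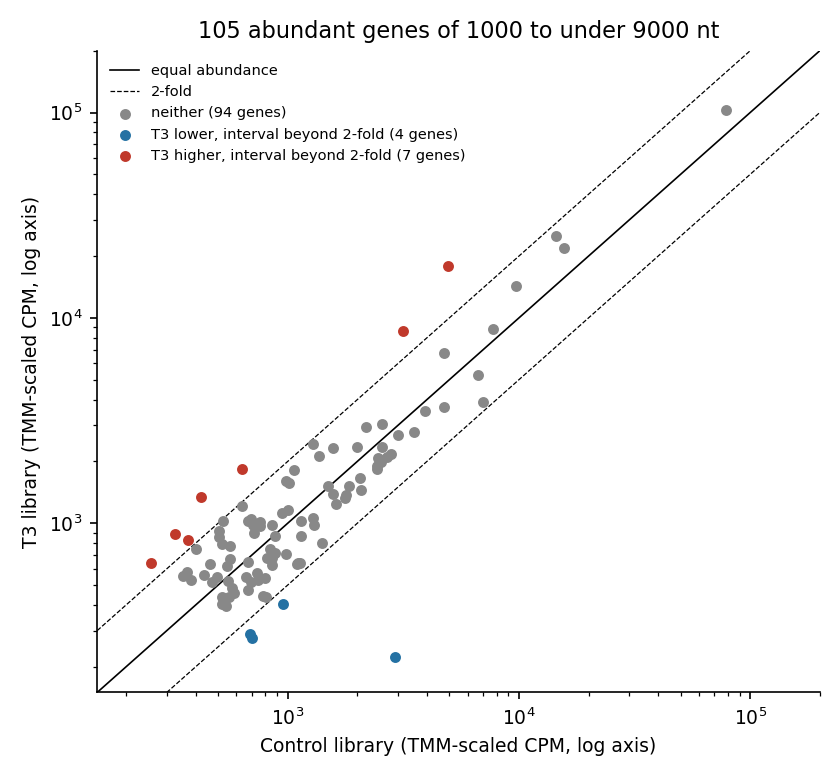
Level of each of the 105 genes in the control library (x axis) and the T3 library (y axis), both in TMM-scaled counts per 1000000 on log axes; the solid line is equal abundance and the dashed lines are 2-fold. The 7 red points lie above the upper dashed line and the 4 blue points below the lower one, with 94 genes between.

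A ratio with its interval wholly beyond 2-fold was found for 11 of the 105 genes, 7 higher and 4 lower in T3. That is 6.67% and 3.81% of the group, beside a background of 0.457% higher and 0.913% lower over all genes with at least 10 counts. A gene with few counts can place its interval beyond 2-fold only with an extreme ratio, so depth enters that background. By the point ratio without an interval, the same number of the 105 genes lay beyond 2-fold in each direction, beside a background of 5.74% higher and 6.16% lower. The share of higher genes was near that background and the share of lower genes was under it. Depth enters here too, because genes with few counts can pass 2-fold by counting error alone. The comparison is therefore not one at like depth. Among the abundant genes under 1000 nt, 4 (3.31%) were higher and 2 (1.65%) lower by the same criterion. The 7 higher genes together took 1.04% of control counts (1.03 to 1.05) and 3.13% of T3 counts (3.12 to 3.15). The 4 lower genes took 0.538% (0.532 to 0.545) and 0.116% (0.113 to 0.119).

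The highest ratio belonged to GS_018536, the gene of rank 5 with a coding length of 1002 nt. It was at 4959 scaled CPM in the control (25121 counts) and 17901 in T3 (105557 counts). That is 3.61-fold higher (3.56 to 3.66) and 3.51 RSDs above the group's median. Per kilobase it stood at 4949 scaled CPM in the control and 17866 in T3.

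GS_003547 (2229 nt, rank 55) was next, at 422 scaled CPM in the control (2138 counts) and 1339.8 in T3 (7900 counts). It was 3.17-fold higher (3.03 to 3.33). Per kilobase it was at 189 scaled CPM in the control and 601 in T3, so its level in T3 came close to the group's median of 615 from far below the median control level of 585.

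The other 5 higher genes ran from 2.23-fold to 2.87-fold. Rank 40 (2529 nt) stood at 637 scaled CPM in the control and 1828 in T3, 2.87-fold higher (2.76 to 2.99). Rank 8 (1305 nt), the second of the 7 among the 10 most abundant genes, stood at 3147 and 8673 scaled CPM, 2.76-fold higher (2.71 to 2.81). Rank 83 (1197 nt) stood at 324 and 889 scaled CPM and was 2.74-fold higher (2.59 to 2.90). These 3 genes differ widely in level and in length, and their counting intervals overlap. Rank 105 (1686 nt), at 256 and 643 scaled CPM, was 2.51-fold higher (2.36 to 2.68). Rank 84 (1521 nt), at 372 and 831 scaled CPM, was 2.23-fold higher (2.12 to 2.35). The highest ratio outside the 7 was 1.96.

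The gene farthest from the group in either direction was GS_016406, with a coding length of 2322 nt and rank 31. It had 14739 counts in the control and 1313 in T3, or 2909 and 223 scaled CPM. It was 13.1-fold lower in T3 (12.3 to 13.8), and its log2 ratio of -3.71 lay at -6.25 RSDs from the group's median. The next lowest log2 ratio in the group was -1.35. In the control library its level per kilobase, 1253 scaled CPM, was above the group's median, and in T3, at 95.9, it was far below the median.

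GS_010771 (1059 nt, rank 97) was second, with 3544 control counts and 1623 T3 counts, or 699.6 and 275 scaled CPM. It was 2.54-fold lower (2.40 to 2.70). The remaining pair were alike in ratio and unlike in length. Rank 96 (2382 nt) stood at 688 scaled CPM in the control and 288 in T3 and was 2.38-fold lower (2.25 to 2.53). Rank 70 (1137 nt) stood at 957 and 402 and was 2.38-fold lower (2.26 to 2.50). The closest gene to this limit on the inner side was 1.84-fold lower.

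**Figure D4:**
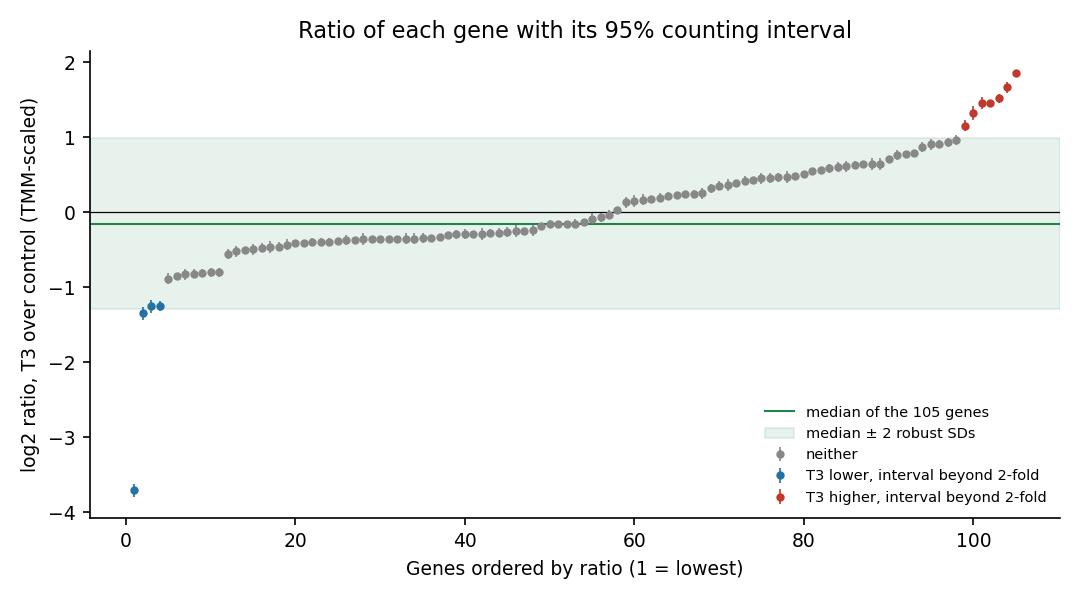
The log2 ratio of T3 over control (y axis) for each of the 105 genes in order of ratio (x axis), with 95% counting intervals as vertical bars; the green line is the median of -0.15 and the shaded band is 2 robust standard deviations (RSD 0.57) to either side. The 7 red genes lie above the band, and of the 4 blue genes 2 lie below it, the lowest at -3.71.

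Measured against the group's own spread instead of a fixed fold, 7 genes lay over 2 RSDs above the median and 2 below it. The 7 were the genes higher beyond 2-fold (6 by each criterion when membership went by mean share), and the 2 were GS_016406 and GS_010771. Ranks 96 and 70 lay at -1.94 and -1.93 RSDs, just inside. More genes of this group therefore lay far above the median than far below it. The greatest distance was below, but it is that of GS_016406 alone. GS_010771 lay at -2.10 RSDs, and the highest gene, GS_018536, at 3.51. Membership by summed count gives more weight to the T3 library, which had 1.22 times the counts. It thus favours genes higher in T3. The lean upward was also not particular to this group. Among the 121 abundant genes under 1000 nt (median -0.28, RSD 0.23), log2 ratios of 0.25 or more lie beyond 2 RSDs above the median. The 3 bands from there upward held 10, 11 and 4 of them. The bands from -1 to -0.5, only partly beyond 2 RSDs below, and under -1 held 11 and 2. All genes were not counted by this rule.

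Coding length did not order the ratios within the group. Across the 105 genes, Spearman's rho of the log2 ratio with coding length was -0.064, and Pearson's r with log2 length was -0.074. These are descriptions across genes, which share the same 2 libraries. The 52 genes of 1000 to under 1500 nt had a median of -0.14, and 23 of them were above equal abundance. The 36 genes of 1500 to under 2500 nt had a median of -0.27, with 15 above, and the widest spread, an RSD of 0.78. The 17 genes of 2500 to under 9000 nt had a median of 0.24, with 10 above, but that class is small. Its 5 longest genes went mostly the other way.

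The longest gene, of 8976 nt, had 4349 control counts and 3689 T3 counts and was 1.37-fold lower (1.31 to 1.43). The gene of 6738 nt was 1.21-fold lower (1.15 to 1.26). That of 6120 nt was 1.37-fold lower (1.30 to 1.45), and its counts are among the lowest of the group. The gene of 5976 nt was 1.43-fold lower (1.36 to 1.51). Of these 5 only the gene of 5802 nt was higher, 1.19-fold (1.14 to 1.23). Their levels per kilobase were among the lowest of the group, from 88.4 to 163 scaled CPM in the control and from 64.4 to 193.5 in T3. The 4 abundant genes of 9000 nt or more, which lie outside the group, were all higher in T3, with log2 ratios of 0.51 to 0.85.

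**Figure D5:**
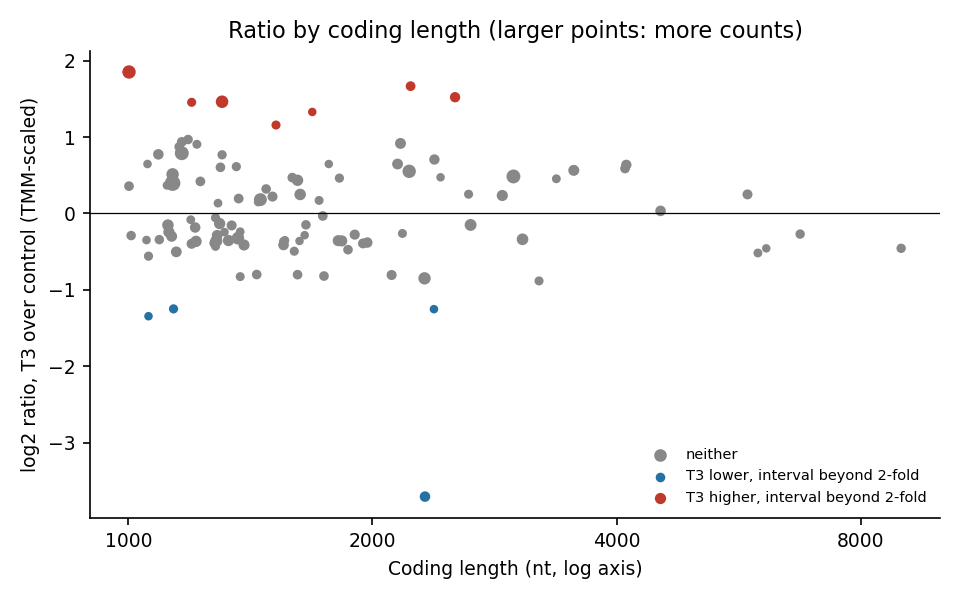
The log2 ratio of T3 over control (y axis) by coding length in nt (x axis, log scale) for the 105 genes; larger points have more counts, and red and blue mark the 7 higher and 4 lower genes with intervals beyond 2-fold. High and low ratios occur across lengths up to about 2500 nt, and 4 of the 5 longest genes lie below 0.

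Abundance did not order the ratios either. Spearman's rho between mean share and log2 ratio was 0.059 and Pearson's r on log2 share 0.12. The 55 genes with 5000 to under 10000 summed counts had a median of -0.15, the 23 genes with 10000 to under 20000 counts -0.16, and the 27 genes with 20000 or more -0.13. The spread was narrower at higher counts, with RSDs of 0.70, 0.52 and 0.47 in that order, although counting error is small in each class. The gain in summed share by the group thus came from the first few genes and is not seen in the class medians.

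The median level per kilobase of the group was 585 scaled CPM in the control and 615 in T3, against 3773 and 3143 for the abundant genes under 1000 nt. Long genes reach 5000 counts at lower levels per length, which is part of how the group was chosen. Just inside the count threshold, the 5 genes with 5027 to 5090 counts had ratios of 0.779, 1.57, 0.728, 1.39 and 2.51. Just outside it, the 5 genes of the same length range with 4735 to 4912 counts had ratios of 0.914, 1.47, 0.671, 1.04 and 0.486. At the length threshold the shortest genes inside had 1002 nt, and the longest abundant gene outside had 987 nt. The highest of the inner ratios, 2.51, is that of rank 105, to whose sum T3 gave 3793 and the control 1297 counts.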

How the data were processed

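Each gene has, per the file headers, a raw count and an FPKM in the table deposited by the authors. The tools listed per the submitters' processing notes are TopHat2 2.0.12, HTSeq 0.6.1 and edgeR, with no roles. Genome build, annotation and use of strand are not given in the sources used here, so genes that share reads with near copies are not known. For all 105 genes the length implied by count, deposited FPKM and library total was whole (tolerance 0.05), equal in both libraries and divisible by 9, and coding lengths (that length divided by 9) were all multiples of 3. The factor 9 is read from the values and is stated nowhere.

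Counts were scaled by TMM on all genes (edgeR 4.0.16, R 4.3.3), the factors being 1.02 (control) and 0.976 (T3). Log2 ratios had 0.5 added to each scaled count. Ratio intervals were exact 95% Clopper-Pearson intervals and share intervals Wilson intervals (scipy 1.17.1). A gene was called beyond 2-fold when its whole interval was. The procedure was run on simulated counts with Poisson error only. Those counts had no variation between fish or libraries, so the run bears on counting error alone. Counts are of reads, which need not be independent molecules.

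The members and criteria were chosen with earlier results of these data known. IDs are printed for the 2 genes highest and the 2 lowest when ranked by the inner bound of the interval. Other genes described singly were those beyond 2-fold, those over 2 robust standard deviations from the median and the 10 most abundant. The 5 longest genes and the 5 nearest to the count threshold on each side were described too. Genes with near IDs or equal coding lengths, given under other observations, were picked outside these criteria. Alternatives were DESeq2 1.42.0 size factors and other scalings, other bounds of membership, other calling rules and the deposited FPKM.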

Additional observations from a re-analysis of the deposited data

How the results depend on the processing

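The counts of 7 higher and 4 lower genes beyond 2-fold, the same under each of the 4 other scalings, on the FPKM and by the point ratio, depended on the limits. With membership by mean share (105 genes, of which 103 are shared) they were 6 and 4, with 6 genes over 2 robust standard deviations above the median and 2 below. With intervals beyond 1.5-fold they were 18 and 11 of the 105 genes, and beyond 4-fold 0 and 1 of the 105. Membership from 2500 counts (180 genes) gave 12 and 5, from 10000 counts (50 genes) 4 and 1, and from 1500 nt (53 genes) 4 and 2. Of these sets 79, 24 and 25 genes had a ratio above 1. Distances over 2 robust standard deviations were found for 14 genes above and 5 below from 2500 counts. From 10000 counts they were found for 6 above and 1 below, and from 1500 nt for 4 above and 1 below. Over 3 robust standard deviations lay 2 above and 1 below, and with mean and standard deviation 3 above and 1 below. Of all 17301 genes with at least 10 counts, in place of 79 higher and 158 lower, the point ratio gave 993 (5.74%) and 1065 (6.16%). Of the same 17301, 1.5-fold gave 279 and 457, and 4-fold 7 and 9. On log2(FPKM + 1) 47 were higher and 113 lower, and on log2(FPKM + 0.1) 281 were higher and 650 lower. No interval applies on FPKM.

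The median of the 105 genes (-0.15) kept its sign, at -0.220 with library totals, -0.060 without the 20 most abundant genes, -0.216 and -0.219 on FPKM with 1 and 0.1 added, and -0.082 with no upper length bound. That of the abundant genes under 1000 nt (-0.28) was -0.347, -0.187, -0.346 and -0.347 under the first 4 of these. The median of all genes moved from 0.00321 to between -0.065 and 0.090 under the other scalings.

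The group's share of control and T3 counts was 29.5% and 33.9% from 2500 counts, 23.3% and 28.0% from 10000, 27.04% and 31.41% by mean share, 9.25% and 9.54% from 1500 nt, 27.3% and 32.0% with no upper bound, and 19.0% and 21.4% without the most abundant gene. The T3 share was the larger in each of these, though by little from 1500 nt. Without the 10 most abundant genes it was the smaller, at 10.43% against 11.37% of control counts. Taken of library totals without the 20 most abundant listed genes, however, the T3 share of these remaining genes was slightly the larger. It stayed the smaller over totals scaled by TMM, by DESeq2 size factors or by the upper quartile. The same held with only the 10 most abundant of the group left out of the totals. A single library in each group allows neither a paired fit nor leaving a replicate out.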

Other observations

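Among the 105 genes, 4 pairs had IDs 1 or 2 apart, and their ratios were set side by side after their values were seen. The sources used here do not say whether IDs run along the genome. Ranks 79 and 50 (1374 and 1743 nt, IDs 2 apart) had log2 ratios of -0.83 and -0.82, and both belong to the cluster of 7 genes between -0.88 and -0.80. Ranks 54 and 77 (1617 and 1602 nt, consecutive) stood at -0.80 and -0.49. The other pairs were unlike. Ranks 15 and 83 (1629 and 1197 nt, consecutive) stood at 0.25 and 1.46, and ranks 68 and 88 (8976 and 3372 nt, IDs 2 apart) at -0.46 and 0.45.

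The same coding length was shared by 11 pairs of the 105 genes. Ranks 1 and 9, both of 1134 nt, had log2 ratios of 0.40 and 0.51. Ranks 2 and 48, both of 1164 nt, had 0.79 and 0.94. The pair of 1554 nt differed by 0.05 and that of 1197 nt by 1.85. Whether such genes share sequence or reads was not tested.

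The IDs around GS_016406 did not share its ratio. The 2 IDs before and the 2 after it held 14 to 78 counts in the control library and 9 to 85 in the T3 library, with ratios of 0.936, 0.922, 1.09 and 0.552. Around GS_018536 the 4 IDs held 29 to 159 control counts and 36 to 180 T3 counts, with ratios of 0.627 to 1.27. Ratios from so few counts are imprecise.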
